A study of Mus musculus with 2 samples.

Results

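The genes described here are 10 members of the Nrf2 antioxidant axis in immune cells of a mouse melanoma. They are picked out by symbol from the 31253 genes listed in both libraries, and no measured value enters that rule, although the list was drawn up with earlier results of these data known. Nfe2l2 encodes the transcription factor Nrf2 and Keap1 its cytoplasmic sensor. The other members are target genes: Hmox1, Slc7a11, Gclc, Gclm, Gsr, Txnrd1, Srxn1 and Nqo1. All 10 had at least 27 unique molecular identifiers (UMIs, 1 per captured mRNA molecule) in each library.

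The cells were CD45+ cells from tumors of B16-F10, a melanoma line of C57BL/6 mice, grown under the skin from 200000 injected cells and collected on day 10. One library came from Irg1+/+ mice and one from Irg1-/- mice, in which Irg1 (Acod1), the enzyme that makes itaconate, is deleted in every cell. Pieces of 100 mm3 from the tumors of 3 mice were pooled per genotype before the BD Rhapsody capture, so each genotype has 1 library, no replicate and no test. An interval given below is an exact 95% interval that covers counting error only, and a difference between the libraries cannot be told apart from any other difference between the pools. The ages and sexes of these mice were not used here.

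The Irg1+/+ library held 6408 cells and 43617546 UMIs, the Irg1-/- library 5896 cells and 36432067 UMIs. Cells with under 10% mitochondrial UMIs were kept, which left 6284 and 5794 cells with medians of 4528 and 4594.5 UMIs. Before any result, 3 properties of the libraries must be stated. The libraries shared 36 cell barcodes. Melanocyte genes were higher in the Irg1+/+ library: 5 of 5 had UMIs in both, their summed level was 800 counts per 1000000 UMIs (CPM) against 168 CPM, and Dct was the most abundant at 382 and 80.3 CPM. Acod1 itself (ENSMUSG00000022126, chr14:103046977-103056573 on GRCm38) was not lower in the library labelled Irg1-/-. Its level was 87.8 CPM (3696 UMIs) in Irg1+/+ and 108 CPM (3805 UMIs) in Irg1-/-, a fold of 1.23 (1.17 to 1.28). The UMIs are counted at the 3′ end of the mRNA. Which part of the gene is deleted was not given in the sources used here, so this count does not check the deletion. Irg1-/- below stands for the library labelled so.

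Nrf2 is made constantly and, in unstressed cells, is captured by Keap1 and passed to a ubiquitin ligase built on Cul3 for degradation. Electrophiles and oxidants modify cysteines of Keap1, Nrf2 then escapes, pairs with small Maf proteins and binds antioxidant response elements at genes for glutathione synthesis, thioredoxin recycling and heme breakdown. Itaconate and its derivatives are such Keap1-modifying electrophiles in activated macrophages. Because this control acts on the protein, the level of Nfe2l2 mRNA is not a measure of Nrf2 activity. Bach1 competes with Nrf2 at the same elements, most of all at Hmox1, and several targets have other inputs, such as Atf4 at Slc7a11.

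RefSeq promoters (250 bases before to 50 after the start site, GRCm38.p6) were found for 7 of the 10 symbols, 9 promoters in all, and Hmox1, Gclc and Gsr had none in the table. The core of the antioxidant response element was searched as TGACNNNGC on both strands. It occurred in 4071 of 32851 mouse promoters (12.4%) and in 4 of the 9 member promoters, 1 each of 4 genes. These 4 promoters are shown because they place the letters that link the factor and its targets on the genome. The match stands in capitals and all other bases are in lower case. Nfe2l2 is on chr2:75704614-75704913, minus strand, with the match at -240 to -232 from the start. Gclm is on chr3:122245307-122245606, plus strand, with the match at -134 to -126. Txnrd1 is on chr10:82858956-82859255, plus strand, 1 of its 3 promoters, with the match at -92 to -84. Srxn1 is on chr2:152105274-152105573, plus strand, with the match at 28 to 36 after it. Positions count from 0 at the first base after the 250.
Nfe2l2: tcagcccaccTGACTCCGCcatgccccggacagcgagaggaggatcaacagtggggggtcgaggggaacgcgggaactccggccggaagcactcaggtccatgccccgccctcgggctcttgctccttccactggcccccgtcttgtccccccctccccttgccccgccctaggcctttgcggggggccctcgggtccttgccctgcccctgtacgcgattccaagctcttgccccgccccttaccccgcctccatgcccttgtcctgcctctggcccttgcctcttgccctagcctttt
Gclm: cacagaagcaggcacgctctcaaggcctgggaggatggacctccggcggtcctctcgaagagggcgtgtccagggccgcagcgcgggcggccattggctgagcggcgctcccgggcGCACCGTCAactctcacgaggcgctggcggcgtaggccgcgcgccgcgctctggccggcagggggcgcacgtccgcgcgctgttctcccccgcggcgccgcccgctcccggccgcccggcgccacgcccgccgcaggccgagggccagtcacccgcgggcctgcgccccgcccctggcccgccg
Txnrd1: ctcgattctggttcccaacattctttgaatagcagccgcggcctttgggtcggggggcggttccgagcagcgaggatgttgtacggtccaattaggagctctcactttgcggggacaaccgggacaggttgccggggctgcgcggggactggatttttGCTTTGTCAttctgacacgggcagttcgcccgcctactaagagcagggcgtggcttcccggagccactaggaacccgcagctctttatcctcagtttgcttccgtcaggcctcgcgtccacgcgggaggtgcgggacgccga
Srxn1: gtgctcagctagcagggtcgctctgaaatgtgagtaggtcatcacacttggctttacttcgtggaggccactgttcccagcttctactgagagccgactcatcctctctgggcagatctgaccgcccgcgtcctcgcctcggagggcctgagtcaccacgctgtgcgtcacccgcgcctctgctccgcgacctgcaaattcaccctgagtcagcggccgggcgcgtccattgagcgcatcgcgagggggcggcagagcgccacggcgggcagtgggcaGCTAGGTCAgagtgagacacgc

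The Nfe2l2 match reads TGACTCCGC in the direction of the gene. The other 3 read GCACCGTCA in Gclm, GCTTTGTCA in Txnrd1 and GCTAGGTCA in Srxn1, which is the reverse strand of the searched letters. A match is a description of letters and not a shown binding site, and the promoters of Slc7a11, Keap1 and Nqo1 without one have none in this window only.

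Cells were placed in 14 gates by summed UMIs of marker genes per 10000 UMIs, in a fixed order in which the first gate met takes the cell. No member was a gate marker. In Irg1+/+ and Irg1-/- the gates held 64 and 183 neutrophils, 90 and 146 eosinophils, 621 and 896 classical monocytes and 122 and 98 nonclassical monocytes. They held 696 and 728 C1q macrophages and 710 and 321 hypoxic macrophages, where the second name stands for cells over the minimum of a marker set that includes Vegfa and Spp1. Dendritic cells (DCs) numbered 354 and 276 cDC1, 256 and 404 cDC2, 418 and 347 mature DCs and 65 and 54 plasmacytoid DCs (pDCs). Lymphocytes numbered 1563 and 905 T cells, 383 and 743 NK cells and 63 and 71 B cells. A melanocyte gate took 58 and 8 cells, and 821 and 614 cells met no gate, with Igha, Jchain and Tpsb2 among their leading genes.

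At least 2 of its own markers were among the 10 leading genes of each gate. The gates were set by these markers, so this is no check of cell identity. The granulocyte gates are uncertain. Their cells were shallow, with medians of 1650.5 and 1824 UMIs in neutrophils and 804.5 and 1064 in eosinophils. Of the neutrophil-gated cells 53.4% met the minimum of another lineage as well, and of the eosinophil-gated cells 65.3%. The same held for 63.0% of pDC-gated and 56.6% of NK-gated cells, so values of these gates carry the same limit. This share depends on the order of the gates. The monocyte gates came last, so their share was 0% by construction, which does not show them free of mixed cells. The eosinophil gate was led by Retnlg, which neutrophils are also known to express, before Alox15, F5 and Ccr3. Doublets were not removed. For these reasons, Nfe2l2, Hmox1, Slc7a11, Gsr and Txnrd1 levels in the granulocyte gates are also given without cells that met 2 lineages. Levels of the pDC and NK gates are given with such cells only.

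Nfe2l2 (ENSMUSG00000015839, chr2:75675513-75704641), the activator of the program, had its highest level in neutrophils and monocytes. In Irg1+/+ it measured 1083 CPM (919 to 1269) in neutrophils, 929 CPM in nonclassical monocytes and 717 CPM (688 to 747) in classical monocytes. In Irg1-/- the same gates measured 1450 CPM (1332 to 1576), 1114 CPM and 759 CPM (735 to 784). Macrophages and most DCs followed at an intermediate level. Irg1+/+ C1q and hypoxic macrophages had 463 and 494 CPM, Irg1-/- ones 518 and 542 CPM, and cDC2, mature DCs and cDC1 lay between 364 and 531 CPM over both libraries. Eosinophils had 269 and 391 CPM from 31 and 91 UMIs, but 147 CPM (5 UMIs) and 552 CPM (31 UMIs) without cells that met 2 lineages. Lymphocytes, pDCs and the melanocyte gate were lowest. T cells had 146 and 155 CPM, NK cells 150 and 200 CPM, B cells 139 and 235 CPM, pDCs 201 and 221 CPM and the melanocyte gate 189 and 224 CPM. In Irg1+/+ the intervals of neutrophils and nonclassical monocytes overlapped, while the interval of classical monocytes lay apart from both neighbours. In Irg1-/- these 3 gates were all apart. Without cells that met 2 lineages, neutrophils still had 1421 CPM (24 cells) and 1656 CPM (91 cells).

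Keap1 (ENSMUSG00000003308, chr9:21229730-21239361), which captures Nrf2, showed little spread between cell types. Over the gates with at least 20 UMIs in each library it lay between 16.1 and 29.9 CPM, and the intervals of neighbours in the order overlapped. Gates further apart in the order could still differ. In Irg1-/- the interval of C1q macrophages (25.9 to 34.3) lay above those of classical monocytes (15.6 to 23.7) and NK cells (14.2 to 25.5). T cells had 24.0 and 26.1 CPM, C1q macrophages 26.6 and 29.9 CPM and classical monocytes 20.4 and 19.3 CPM. Neutrophils were the exception in count. They had 0 of 141225 UMIs in Irg1+/+, which allows up to 26.1 CPM, and 3 of 383347 in Irg1-/-, which is 7.83 CPM (1.61 to 22.9). The upper bound of the Irg1+/+ neutrophils is at the level of most other gates, so at this depth an absence cannot be stated. The Irg1-/- neutrophil interval lay below that of Irg1-/- C1q macrophages, on 3 UMIs.

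**Figure D1:**
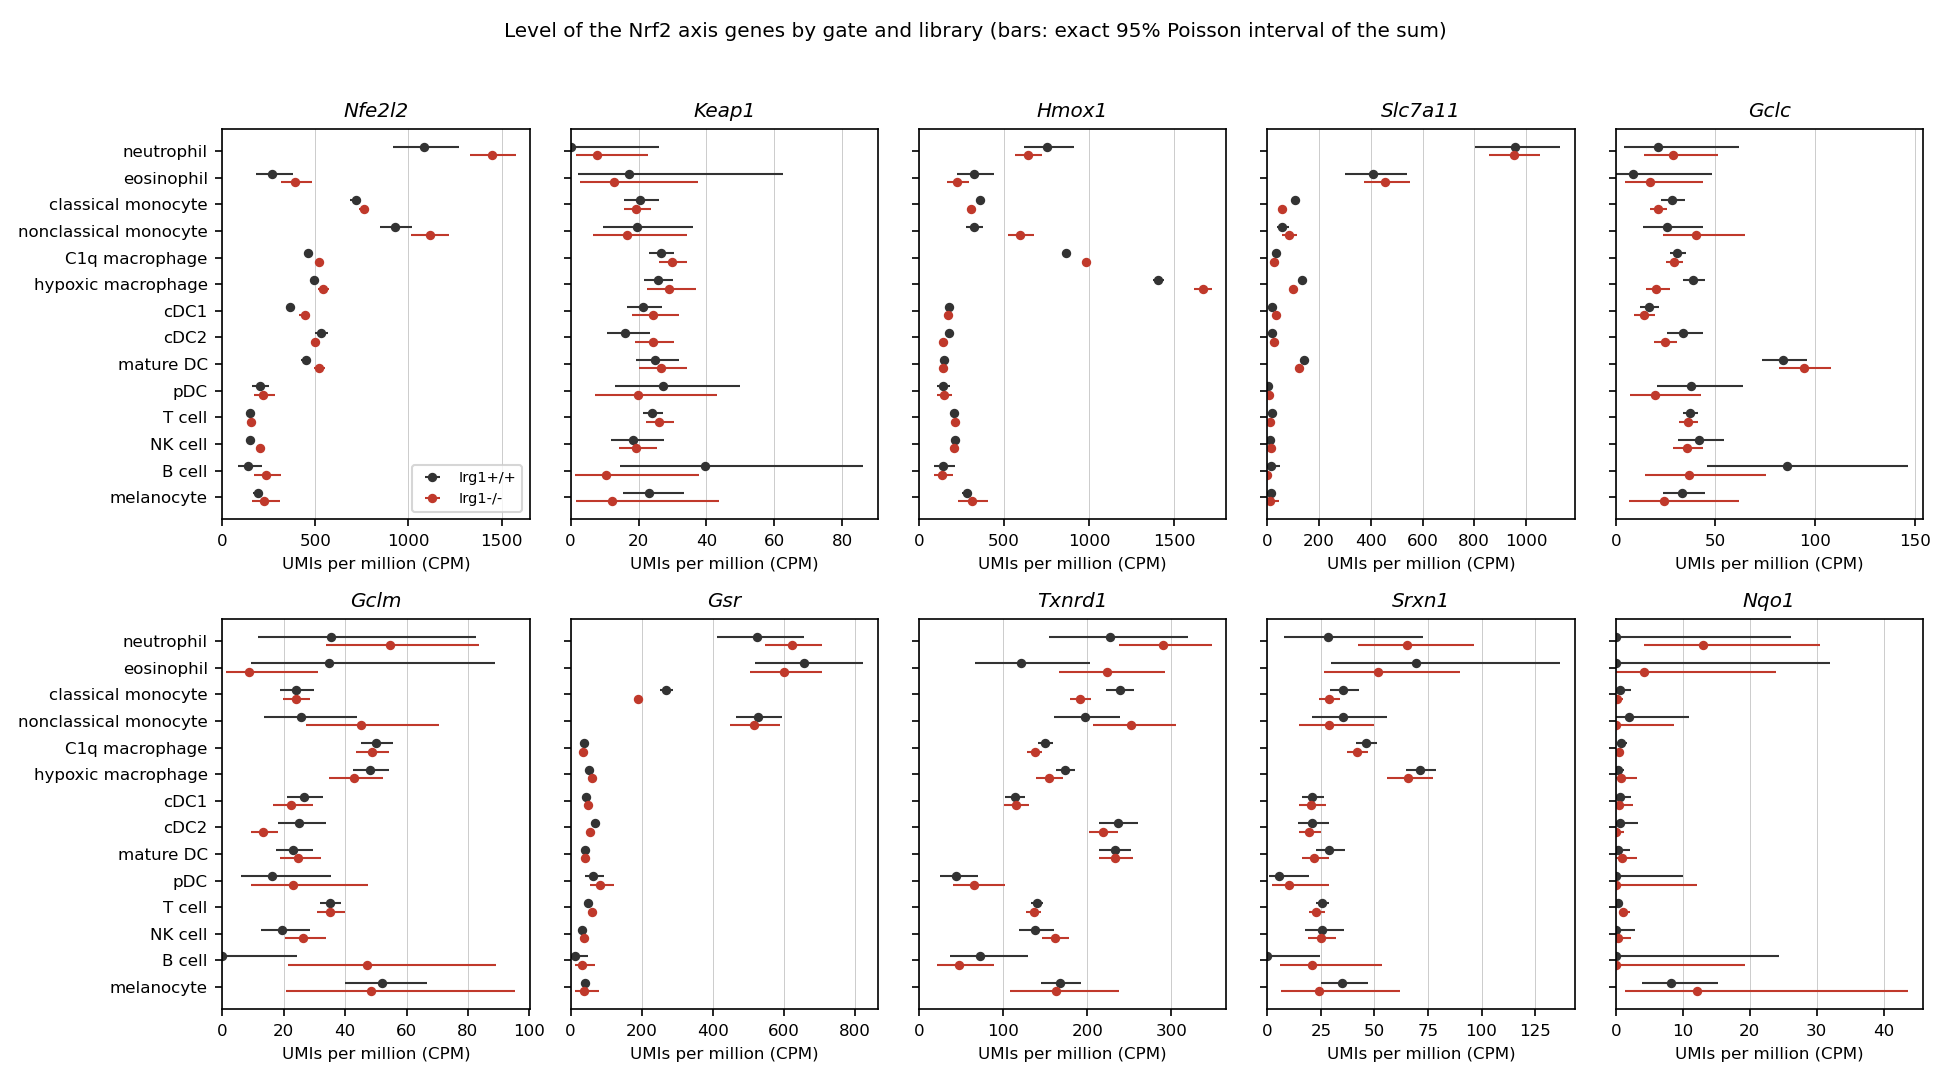
Level of each of the 10 genes (x axis, CPM, a separate linear scale for each gene) in the 14 gates (y axis), with a point per library (black Irg1+/+, red Irg1-/-) and a bar for the exact 95% Poisson interval of the summed UMIs. Hmox1 stands out in hypoxic and C1q macrophages (862 to 1669 CPM), Slc7a11 in neutrophils and eosinophils (407 to 956 CPM) and Gsr in these gates and nonclassical monocytes (516 to 659 CPM), and Keap1 shows no such peak.

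Hmox1 (ENSMUSG00000005413, chr8:75093621-75100589) encodes heme oxygenase 1, which cuts heme into biliverdin, carbon monoxide and iron. Its level peaked in macrophages. Hypoxic macrophages had 1406 CPM (1375 to 1438) in Irg1+/+ and 1669 CPM (1616 to 1722) in Irg1-/-, and C1q macrophages 862 CPM (841 to 884) and 980 CPM (956 to 1004). Neutrophils had 751 and 639 CPM, or 392.1 CPM (16 UMIs) and 532 CPM without cells that met 2 lineages, where nonclassical monocytes had 321 and 595 CPM, or 253 and 282 CPM without the highest cell of each library. Eosinophils without such cells had 235 CPM (8 UMIs) and 303 CPM (17 UMIs), so the order of the libraries turned in both granulocyte gates. T cells had 208 and 214 CPM, NK cells 213 and 207 CPM, and the 4 DC gates lay between 138 and 177 CPM. The macrophage gates together held 64.9% and 59.2% of all Hmox1 UMIs of the kept cells.

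The low level in T cells was set against a gene of another cell type. C1qb, a complement gene that T cells should lack, stood in T cells at 11.7% and 12.98% of its C1q macrophage level, and Hmox1 at 24.2% and 21.8%. After thinning to 2000 UMIs per cell, 25.4% and 23.8% of T cells had a Hmox1 UMI against 55.5% and 50.4% of C1q macrophages. C1qb was found in 47.5% and 49.1% of thinned T cells. Of the T-gated cells 23.9% met another lineage, and without such cells Hmox1 in lymphocytes had 170 and 158 CPM in place of 208 and 210 CPM. Free RNA and wells with cells of different types cannot be told apart here. Median depths before thinning were 4152 and 3557 UMIs in T cells and 7907.5 and 8027.5 in C1q macrophages. Erythroid RNA was near absent, as the 4 hemoglobin genes together had 3 UMIs in Irg1+/+ and 7 in Irg1-/- over all kept cells.

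Slc7a11 (ENSMUSG00000027737, chr3:49892526-50443614) encodes the cystine importer xCT, which feeds glutathione synthesis. It had the steepest spread between gates. Neutrophils measured 956 CPM (801 to 1131) in Irg1+/+ and 952 CPM (857 to 1055) in Irg1-/-, 36.2 and 32.4 times the median of the 14 gates. Eosinophils had 407 and 455 CPM. All other gates were far lower. Mature DCs had 141 and 123 CPM, hypoxic macrophages 133 and 98.4 CPM, and classical monocytes 108 and 57.2 CPM. C1q macrophages had 35.0 and 26.7 CPM and T cells 16.5 and 9.47 CPM. Without cells that met 2 lineages neutrophils kept 1029 and 1214 CPM, while eosinophils then had 587 CPM from 20 UMIs and 178 CPM from 10 UMIs. In thinned cells, 66.7% of 18 Irg1+/+ neutrophils and 70.6% of 68 Irg1-/- neutrophils had a UMI, against 2.86% and 1.45% of T cells.

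Neutrophils were few, so most Slc7a11 molecules lay elsewhere. They held 5.27% of the UMIs in Irg1+/+ and 18.6% in Irg1-/-, and the macrophage gates 38.9% and 20.7%. The neutrophil share of kept cells was 1.02% and 3.16%.

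Gclc (ENSMUSG00000032350, chr9:77754535-77794485) and Gclm (ENSMUSG00000028124, chr3:122245557-122270732) encode the catalytic and the modifier subunit of glutamate-cysteine ligase, the first enzyme of glutathione synthesis. The subunits did not share a pattern. Among gates with at least 20 UMIs in each library, Gclc was highest in mature DCs, at 84.1 CPM (73.2 to 96.2) and 94.2 CPM (82.0 to 107.8), and lay between 13.98 and 41.6 CPM in the others. A few cells carried this level, as 10% of the mature DCs held 78.4% and 88.3% of the Gclc UMIs and the median cell had none. This was not particular to mature DCs. The same share was 86.7% and 100% in classical monocytes, 75.6% and 87.2% in hypoxic macrophages and 64.1% and 62.9% in T cells. Among gates with at least 20 UMIs in each library, Gclm was highest in macrophages. It had 50.1 and 48.8 CPM in C1q and 48.2 and 42.9 CPM in hypoxic macrophages. T cells of both libraries had 35.1 CPM, and the others 13.1 to 26.5 CPM. Outside these gates, 63 UMIs of the Irg1+/+ melanocyte gate gave 52.1 CPM and 21 UMIs of Irg1-/- neutrophils 54.8 CPM. Over the 28 points that 14 gates and 2 libraries give, the correlation of Gclc and Gclm was r = -0.23 on the log2(CPM + 10) scale. These points share libraries and differ in depth, so the value is a description.

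Gsr (ENSMUSG00000031584, chr8:33652523-33698163), the glutathione reductase that returns oxidized glutathione to its reduced form, followed Slc7a11 most closely of all member pairs (r = 0.74 over the same 28 points). Eosinophils had 659 CPM (519 to 824) and 601 CPM (505 to 709), neutrophils 524 and 623 CPM. Nonclassical monocytes reached the same range with 527 and 516 CPM. Classical monocytes had 269 and 190 CPM, and every other gate had at most 82.4 CPM. Macrophages were among these low gates, with 37.9 and 35.9 CPM in C1q and 50.7 and 59.0 CPM in hypoxic macrophages. Without cells that met 2 lineages, the eosinophil level was 1144 CPM from 39 UMIs and 606 CPM from 34 UMIs, and the neutrophil level 784 CPM from 32 UMIs and 718 CPM from 120 UMIs, which turned the order of the libraries there.

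Txnrd1 (ENSMUSG00000020250, chr10:82833951-82897712) encodes thioredoxin reductase 1, which keeps thioredoxin reduced. It was broadly expressed. Classical monocytes had 238 and 192 CPM, cDC2 236 and 219 CPM, mature DCs 233 CPM in both libraries and neutrophils 227 and 290 CPM, or 245 CPM (10 UMIs) and 311 CPM (52 UMIs) without cells that met 2 lineages. C1q macrophages had 150 and 137 CPM, at the level of T cells with 140 and 136 CPM. The lowest were pDCs and B cells with 43.4 to 72.6 CPM. Srxn1 (ENSMUSG00000032802, chr2:152105516-152111376), sulfiredoxin, which repairs overoxidized peroxiredoxins, instead followed Hmox1 (r = 0.71). Hypoxic macrophages had 71.4 CPM (64.5 to 78.8) and 65.9 CPM (55.8 to 77.2), C1q macrophages 46.0 and 41.7 CPM, and T cells 25.6 and 22.9 CPM. Eosinophils had 69.3 and 51.5 CPM and neutrophils 28.3 and 65.2 CPM, with wide intervals that included the C1q macrophage level of the same library except in Irg1-/- neutrophils (42.2 to 96.3).

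Nqo1 (ENSMUSG00000003849, chr8:107388225-107403206), a quinone reductase often used as a readout of Nrf2, was nearly undetected. It had 31 UMIs in Irg1+/+ and 27 UMIs in Irg1-/- over all kept cells, 0.736 and 0.765 CPM. The 58 cells of the Irg1+/+ melanocyte gate held 10 of these UMIs, 8.27 CPM (3.96 to 15.2). The interval of this melanocyte gate lay apart from those of Irg1+/+ C1q macrophages (0.297 to 1.76) and T cells (0.0563 to 0.797). The macrophage gates held 8 and 5 UMIs. In Irg1-/- the highest level was that of the 183 neutrophils, 13.04 CPM (4.24 to 30.4) from 5 UMIs. Their interval lay apart from those of Irg1-/- C1q macrophages (0.091 to 1.29) and T cells (0.43 to 2.20). It overlapped that of the Irg1-/- melanocyte gate (1.46 to 43.7). Irg1+/+ neutrophils had 0 UMIs, which allows up to 26.1 CPM. Between the libraries, the fold over all kept cells was 1.04 (0.60 to 1.80), and within classes the UMIs were too few for a ratio.

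The next question was which members are higher in myeloid cells than in lymphocytes of the same library. A member counts as higher when its CPM ratio is at least 1.5 and it has 20 UMIs or more over both classes. Of the 9 members with enough UMIs, 4 were higher in macrophages in Irg1+/+ and 4 in Irg1-/-, where 19.3% and 20.4% of all genes with enough UMIs were higher. They were Nfe2l2, Hmox1, Slc7a11 and Srxn1 in both libraries. Hmox1 was 5.27-fold (5.05 to 5.49) and 5.49-fold (5.23 to 5.76) higher. Slc7a11 was 4.84-fold and 4.09-fold higher, Nfe2l2 3.25-fold and 3.11-fold, and Srxn1 2.25-fold and 2.04-fold. The enzymes of glutathione recycling and synthesis did not share this: Gsr had folds of 0.92 and 0.79, and Gclc 0.90 and 0.75. Gclm lay just under the limit with 1.49 and 1.43, and Keap1 had 1.11 and 1.24. Scaling by trimmed mean of M values (TMM) in place of the UMI total adds 0.28 and 0.23 to these log2 ratios, which makes the count 5 in each library and puts Gsr and Gclc of Irg1+/+ above 1.

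In neutrophils 5 members were higher in Irg1+/+ and 7 in Irg1-/- out of 9, where 24.2% and 16.1% of all genes were. Slc7a11 led with folds of 60.5 (48.1 to 75.5) and 86.8 (69.7 to 109.7). Gsr followed with 11.1 and 11.8, Nfe2l2 with 7.43 and 8.60, Hmox1 with 3.63 and 3.04 and Txnrd1 with 1.66 and 2.06. In Irg1-/- Srxn1 (2.84) and Gclm (1.70) were higher as well. The members below the limit on the other side were Keap1 and Gclc in Irg1+/+ and Keap1 in Irg1-/-, from 0 to 3 neutrophil UMIs.

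In monocytes 5 and 4 of 9 members were higher, with 16.7% and 17.3% over all genes. Gsr was 6.43-fold and 4.10-fold, Slc7a11 6.40-fold and 5.40-fold, Nfe2l2 5.10-fold and 4.67-fold and Hmox1 1.69-fold and 1.56-fold higher. Txnrd1 was 1.68-fold higher in Irg1+/+ and 1.39-fold in Irg1-/-. In DCs only Nfe2l2 (2.87 and 2.84) and Slc7a11 (3.58 and 5.02) were higher. These are 2 of 9 in each library against 17.1% and 18.2% of all genes. Hmox1 had folds of 0.80 and 0.71 there, within 1.5-fold. Among DCs, mature DCs had the most Slc7a11 with 141 and 123 CPM. The level was 17.8 and 32.2 CPM in cDC1, 16.7 and 24.1 CPM in cDC2 and 2.71 and 6.59 CPM in pDCs. Lymphocytes had 15.8 and 10.9 CPM. In eosinophils 5 of 9 were higher in each library, where 30.1% and 22.5% of all genes were. Hmox1 was among them only in Irg1+/+ and Txnrd1 only in Irg1-/-. Without cells that met 2 lineages, eosinophils and lymphocytes had Hmox1 at 235 and 170 CPM in Irg1+/+ and 303 and 158 CPM in Irg1-/-. Txnrd1 then had 235 and 142 CPM in Irg1+/+ and 196 and 136 CPM in Irg1-/-. Srxn1 in Irg1-/- had 17.8 CPM (1 UMI) and 21.0 CPM and no longer passed. Slc7a11 and Nfe2l2 were thus higher than in lymphocytes in all 5 myeloid classes and both libraries, taken as whole classes. Within the DC class of Irg1+/+, Slc7a11 passed the limit in mature DCs only. An exception was Nfe2l2 without cells that met 2 lineages. It then had 147 CPM (5 UMIs) in Irg1+/+ eosinophils and 115 CPM in lymphocytes, within 1.5-fold. Hmox1 was higher in 3 classes in both libraries.

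The comparison of the libraries, Irg1-/- over Irg1+/+, asks whether Nrf2 targets differ where itaconate should be missing. Over all kept cells, no member passed 1.5-fold. Nfe2l2 had 393 and 474 CPM, a fold of 1.21 (1.18 to 1.23), Hmox1 520 and 502 CPM (0.97), and Slc7a11 60.8 and 55.7 CPM (0.92). These sums mix different cell compositions, so the ratios are given by class.

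In macrophages 0 of 9 members with enough UMIs were higher and 1 was lower, where 5.44% of all genes were higher and 6.14% lower. The one was Slc7a11, with 76.8 CPM (996 UMIs) and 44.9 CPM (408 UMIs), a fold of 0.58 (0.52 to 0.66). The median log2 ratio of the 9 members was -0.06, beside -0.03 over all genes. Hmox1 had 1096 and 1154 CPM (1.05) in the summed counts but 474 and 378 CPM in the median cell. Without cells holding a melanocyte UMI it had 1044 CPM in 531 of 1406 cells and 1459 CPM in 655 of 1049 cells. The log2 ratio was then 0.48 against 0.08 in all cells. Nfe2l2 had 476 and 524 CPM (1.10). Srxn1 (0.84) and Gclc (0.78) had ratios below 1 whose intervals did not reach 1, as did Txnrd1 (0.89), whose log2 ratio was 0.0067 once cells with a melanocyte UMI were left out. Hypoxic cells, which had the higher Slc7a11 level, made up 710 of 1406 gated macrophages in Irg1+/+ and 321 of 1049 in Irg1-/-. Within hypoxic macrophages the fold of Slc7a11 was 0.74 (0.64 to 0.86) and within C1q macrophages 0.76 (0.63 to 0.93), so the ratio was nearer to 1 within each gate than over both.

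In monocytes 0 of 9 members were higher and 1 was lower, with 5.00% and 6.45% over all genes. It was again Slc7a11, with 101 CPM (374 UMIs) and 59.3 CPM (310 UMIs), a fold of 0.58 (0.50 to 0.68). The median log2 ratio was -0.24, beside -0.04 over all genes. Classical monocytes held 345 and 275 of these UMIs. Slc7a11 had there 108 CPM and 57.2 CPM (0.53, 0.45 to 0.62), Gsr 269 and 190 CPM (0.71, 0.64 to 0.78) and Txnrd1 238 and 192 CPM (0.80, 0.73 to 0.89). Nonclassical monocytes had Slc7a11 at 57.1 and 83.3 CPM from 29 and 35 UMIs (1.46, 0.87 to 2.48). Classical monocytes low in interferon-response genes had a Slc7a11 fold of 0.50 (0.41 to 0.61) and those high in them 0.59 (0.45 to 0.79). The direction held under every alternative tried, but the monocyte ratio came within 1.5-fold at a log2 ratio of -0.41 in thinned cells and of -0.49 with clusters in place of gates. Leaving out cells that met 2 lineages could not change this class, because of the gate order. In thinned cells, the share of classical monocytes with a Slc7a11 UMI was 13.6% and 10.3%.

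In neutrophils 1 of 7 members was higher and 0 were lower, where 12.9% and 20% of all genes were. It was Srxn1, on 4 and 25 UMIs, with a fold of 2.09 (0.80 to 9.10). A single cell held 3 of the 4 Irg1+/+ UMIs, and without the highest cell of each library the fold was 4.25 (0.98 to 259). Without cells that met 2 lineages 1 and 9 UMIs were left, under the minimum of 20. Nfe2l2 had a fold of 1.34 (1.12 to 1.61) and Slc7a11 of 0.99 (0.82 to 1.22). Without cells that met 2 lineages the Nfe2l2 levels were 1421 and 1656 CPM. All 6 neutrophil markers of the gate were detected and summed to 13255 and 17128 CPM, with S100a9 the most abundant, and their part in the Nfe2l2 ratio was not tested. The members' median log2 ratio was 0.34 and that of all genes -0.13. In eosinophils 1 of 6 was higher and 0 were lower, where 13.5% and 14.6% of all genes were, namely Txnrd1 with 121 CPM (14 UMIs) and 223 CPM (52 UMIs), a fold of 1.79 (1.00 to 3.59). Without cells that met 2 lineages the direction turned, with 235 CPM (8 UMIs) and 196 CPM (11 UMIs). The 6 macrophage markers, all detected in the eosinophil gate, summed to 1984 and 3862 CPM there, with C1qb the most abundant in Irg1+/+ and Apoe in Irg1-/-, and their part was not tested. In DCs 0 of 9 members passed the limit either way, beside 5.03% higher and 7.35% lower over all genes, and in lymphocytes 0 of 9, beside 4% and 6.23%.

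**Figure D2:**
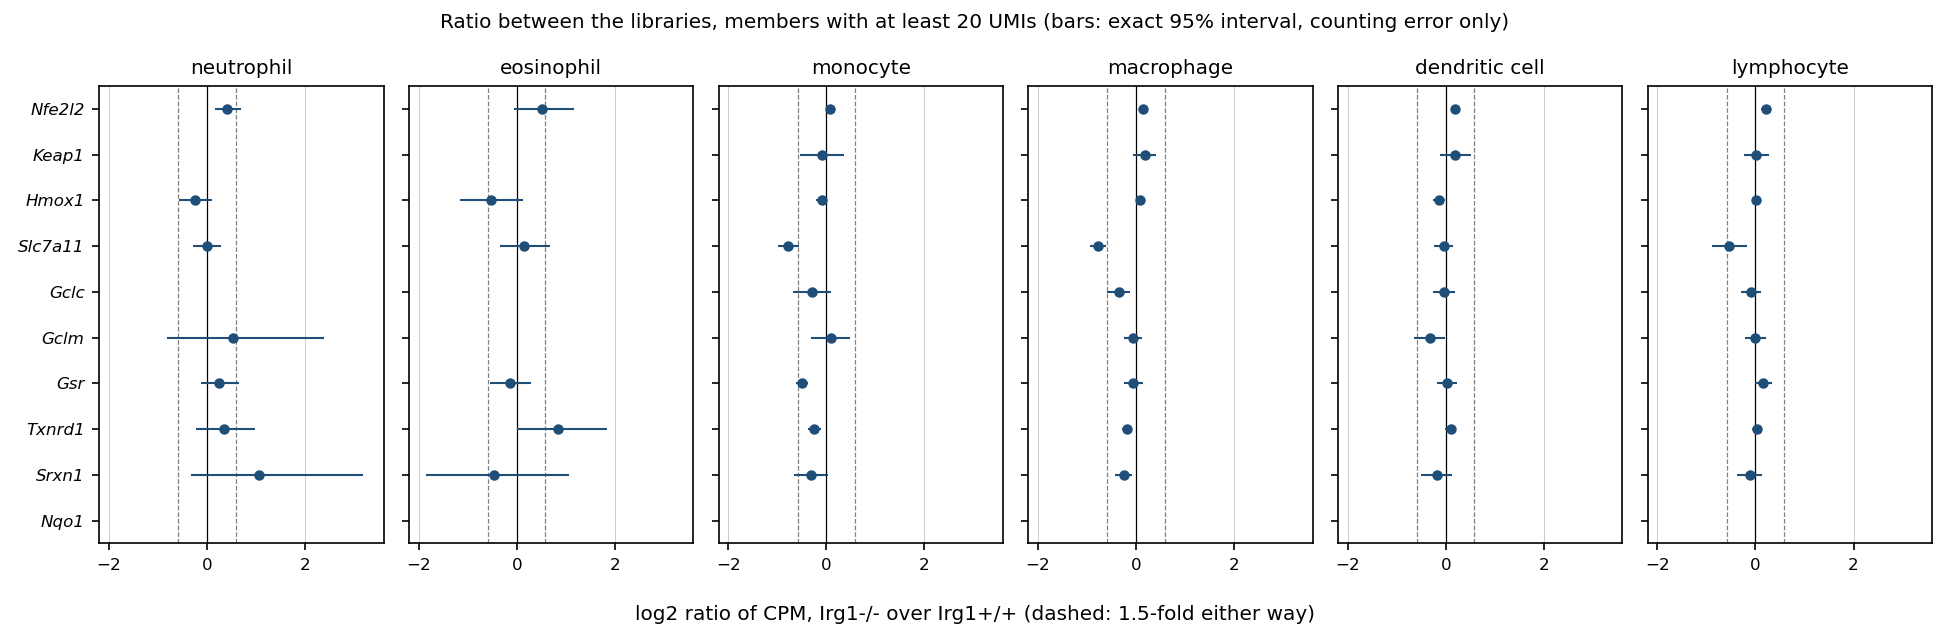
Log2 ratio of CPM between the libraries, Irg1-/- over Irg1+/+ (x axis), for each member with at least 20 UMIs (y axis) in 6 cell classes. Points are ratios, bars exact 95% intervals for counting error only, dashed lines 1.5-fold either way. Slc7a11 lies at -0.77 in monocytes and in macrophages, and Nfe2l2 lies right of 0 in every class. Nfe2l2 is at -0.03 in macrophages once cells with a melanocyte UMI are left out. That setting keeps unequal parts of the libraries, 531 of 1406 Irg1+/+ and 655 of 1049 Irg1-/- macrophages.

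The Nfe2l2 level was higher in Irg1-/- in 13 of the 14 gates, by small folds. All gates come from the same 2 pools, so they are not separate observations. The share of all genes higher in as many gates is not given, so nothing is read from the count. The level intervals of the libraries overlapped in T cells (146 and 155 CPM), pDCs (201 and 221 CPM) and the melanocyte gate (189 and 224 CPM), among others. The folds were 1.12 (1.07 to 1.18) in C1q macrophages, 1.10 (1.03 to 1.17) in hypoxic macrophages, 1.21 (1.11 to 1.32) in cDC1 and 1.33 (1.13 to 1.58) in NK cells. The gate on the other side was cDC2 with 0.94 (0.87 to 1.03). All of these lie within 1.5-fold except that of B cells, 1.67 (0.99 to 2.99), on 21 and 45 UMIs, which was 1.39 (0.76 to 2.67) without the highest cells. Eosinophils also passed 1.5-fold without cells that met 2 lineages, with 147 CPM (5 UMIs) and 552 CPM (31 UMIs). Dissociation-stress genes had a higher summed level in Irg1-/- too. All 8 were detected, with sums of 4629 CPM in Irg1+/+ and 5873 CPM in Irg1-/- over all kept cells, 6644 and 7856 CPM in macrophages, 4508 and 6417 CPM in monocytes and 10735 and 16468 CPM in neutrophils. Fos, an immediate early gene and the most abundant of the list in macrophages and monocytes, had 1771 and 2393 CPM in macrophages. Their part in the Nfe2l2 ratios was not tested. Once all cells with a melanocyte UMI were left out, the log2 ratio of Nfe2l2 in macrophages was -0.03. That setting kept unequal parts of the libraries, 531 of 1406 Irg1+/+ and 655 of 1049 Irg1-/- macrophages. Of the Nfe2l2 UMIs it kept 1034 of 6173 and 2353 of 4770. A deeper cell has more chance to hold a melanocyte UMI, and the part of depth in this value was not tested.

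Macrophage states within the C1q gate were separated by MHC class II genes, Mrc1-group genes, resident genes such as Lyve1, and cycling genes. They are ranges of marker scores within one gate and not cell types, with at most 2 of their own markers among the 10 leading genes. In Mrc1 high macrophages Hmox1 had 888 CPM in 173 Irg1+/+ cells and 1770 CPM in 147 Irg1-/- cells, a fold of 1.99 (1.88 to 2.11), or 1.97 (1.85 to 2.09) without the highest cell of each library. A minority of cells carried this level. The 10% of the cells with the most Hmox1 UMIs held 50.02% of them in Irg1+/+ and 77.2% in Irg1-/-, and the median cell had 530 CPM in Irg1+/+ and 389 CPM in Irg1-/-, the opposite order. In C1q macrophages in no named state Hmox1 had 1530 and 1112 CPM (0.73), but without the highest cell of each library, in Irg1+/+ one with 516 UMIs, 804 and 884 CPM. Nonclassical monocytes also depended on 1 cell. Their Hmox1 levels of 321 and 595 CPM (1.85, 1.52 to 2.27) became 253 and 282 CPM (1.11, 0.86 to 1.44) without the highest cells, one of which held 133 of the 250 Irg1-/- UMIs. One cell also held 68.4% of the Irg1-/- Gclm UMIs and 66.7% of the Srxn1 UMIs there.

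**Figure D3:**
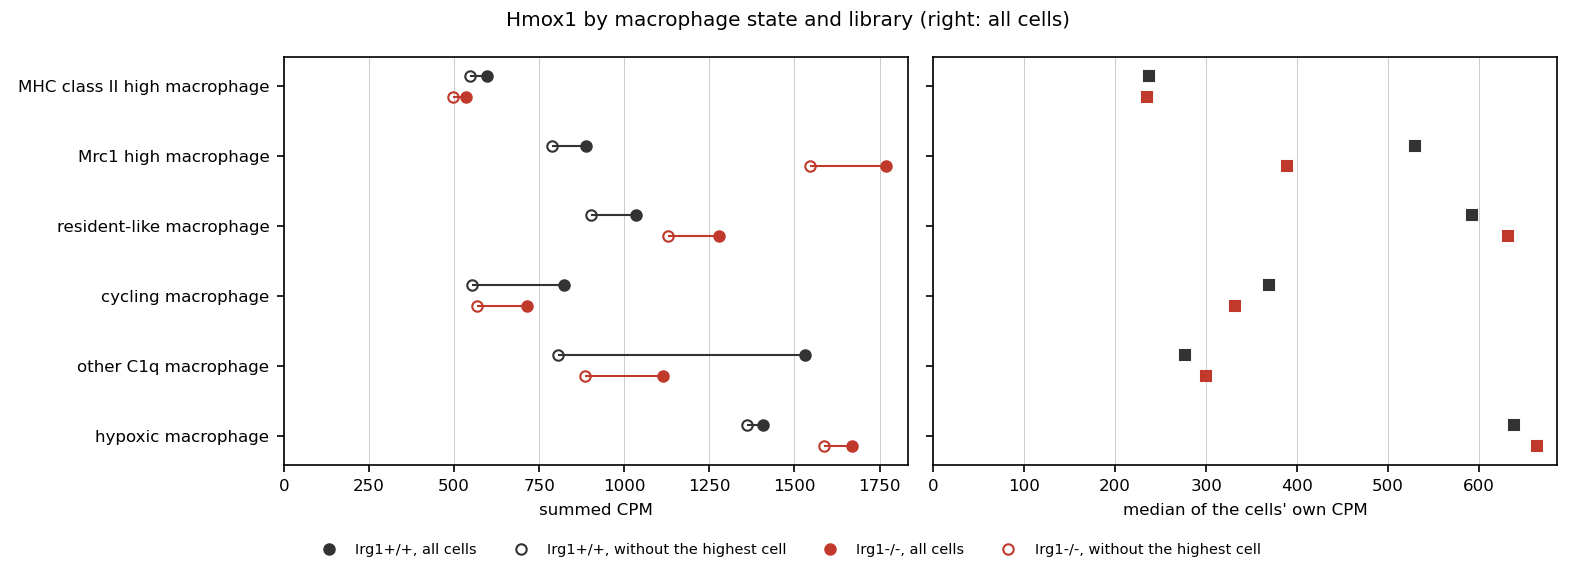
Hmox1 in 5 states of C1q macrophages and in hypoxic macrophages (y axis). The left panel gives the summed CPM with all cells (filled) and without the single highest cell of each library (open), the right panel the median of the cells' own CPM (black Irg1+/+, red Irg1-/-). In Mrc1 high macrophages the summed level is higher in Irg1-/- (1770 against 888 CPM) and the median cell is lower (389 against 530 CPM).

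Slc7a11 had 44.6 and 23.3 CPM (0.52, 0.38 to 0.72) in MHC class II high macrophages and 41.4 and 32.2 CPM (0.78, 0.54 to 1.11) in Mrc1 high macrophages. Gclm had 44.6 and 74.4 CPM (1.66, 1.07 to 2.65) in resident-like macrophages, where 1 cell again carried part of it, with 1.41 (0.88 to 2.33) without the highest cells. Gclc had 39.0 and 20.4 CPM (0.53, 0.37 to 0.72) in hypoxic macrophages and 0.59 (0.41 to 0.82) without the highest cells, one of which had 35 of 217 Irg1+/+ UMIs. In cDC2 Gclm had 25.002 and 13.1 CPM (0.52, 0.33 to 0.83). In cDC1 Slc7a11 went the other way with 17.8 and 32.2 CPM (1.81, 1.255 to 2.61), or 1.55 (1.03 to 2.35) without the highest cells. How many of these few UMIs came from other cells was not tested.

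Members were also compared between cells with and without an Acod1 UMI, after thinning each cell to 2000 UMIs. In either library the UMI marks transcription of the locus and is no measure of itaconate. A cell without a UMI may still express the gene. Acod1 was most abundant in neutrophils, with 2216 CPM in Irg1+/+ and 1716 CPM in Irg1-/-, and had 183 and 209 CPM in hypoxic and 85.2 and 129 CPM in C1q macrophages. Thinned macrophages had a UMI in 195 of 1098 cells (17.8%) and 168 of 881 cells (19.1%). Of the cells with a UMI 67.7% and 38.1% were hypoxic, and of those without 49.5% and 29.2%.

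In macrophages, 1 of 9 members passed 1.5-fold in either direction in Irg1+/+ and 2 in Irg1-/-, where 23.9% and 21.9% of all genes with enough UMIs did. Slc7a11 was higher in Acod1-positive cells in Irg1+/+ with 1.59 (1.13 to 2.18) and lower in Irg1-/- with 0.63 (0.31 to 1.09), on 52 and 13 UMIs in the positive cells. The other in Irg1-/- was Gclm, lower in positive cells with 0.66 (0.26 to 1.33) on 8 UMIs. Without thinning no member passed 1.5-fold in macrophages of either library. Hmox1 had 1.02 (0.91 to 1.13) and 0.84 (0.74 to 0.94), and Nfe2l2 1.08 and 1.09. Within hypoxic macrophages, Hmox1 was at 1370 CPM in negative and 1125 CPM in positive Irg1+/+ cells (0.82, 0.72 to 0.93) and at 1844 and 1266 CPM in Irg1-/- cells (0.69, 0.58 to 0.81). Within C1q macrophages it went the other way in Irg1+/+, with 747 and 960 CPM (1.29, 1.05 to 1.56), and had a fold of 0.91 (0.77 to 1.06) in Irg1-/-. For Slc7a11 the hypoxic cells gave 1.24 (0.85 to 1.76) and 0.84 (0.41 to 1.51). Positive C1q macrophages gave 9 UMIs in Irg1+/+ and 0 in Irg1-/-, against 34 and 39 in negative cells. In monocytes 2 members passed in Irg1+/+, Gclm (3.43, 1.38 to 7.77) and Keap1 (2.40, 0.73 to 6.23) on 10 and 6 UMIs in positive cells, against 30% of all genes. In Irg1-/- 1 passed, Gsr with 0.63 (0.45 to 0.86), against 24.5%. Nfe2l2 had 1.23 (1.03 to 1.45) and 1.18 (1.02 to 1.35) there.

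**Figure D4:**
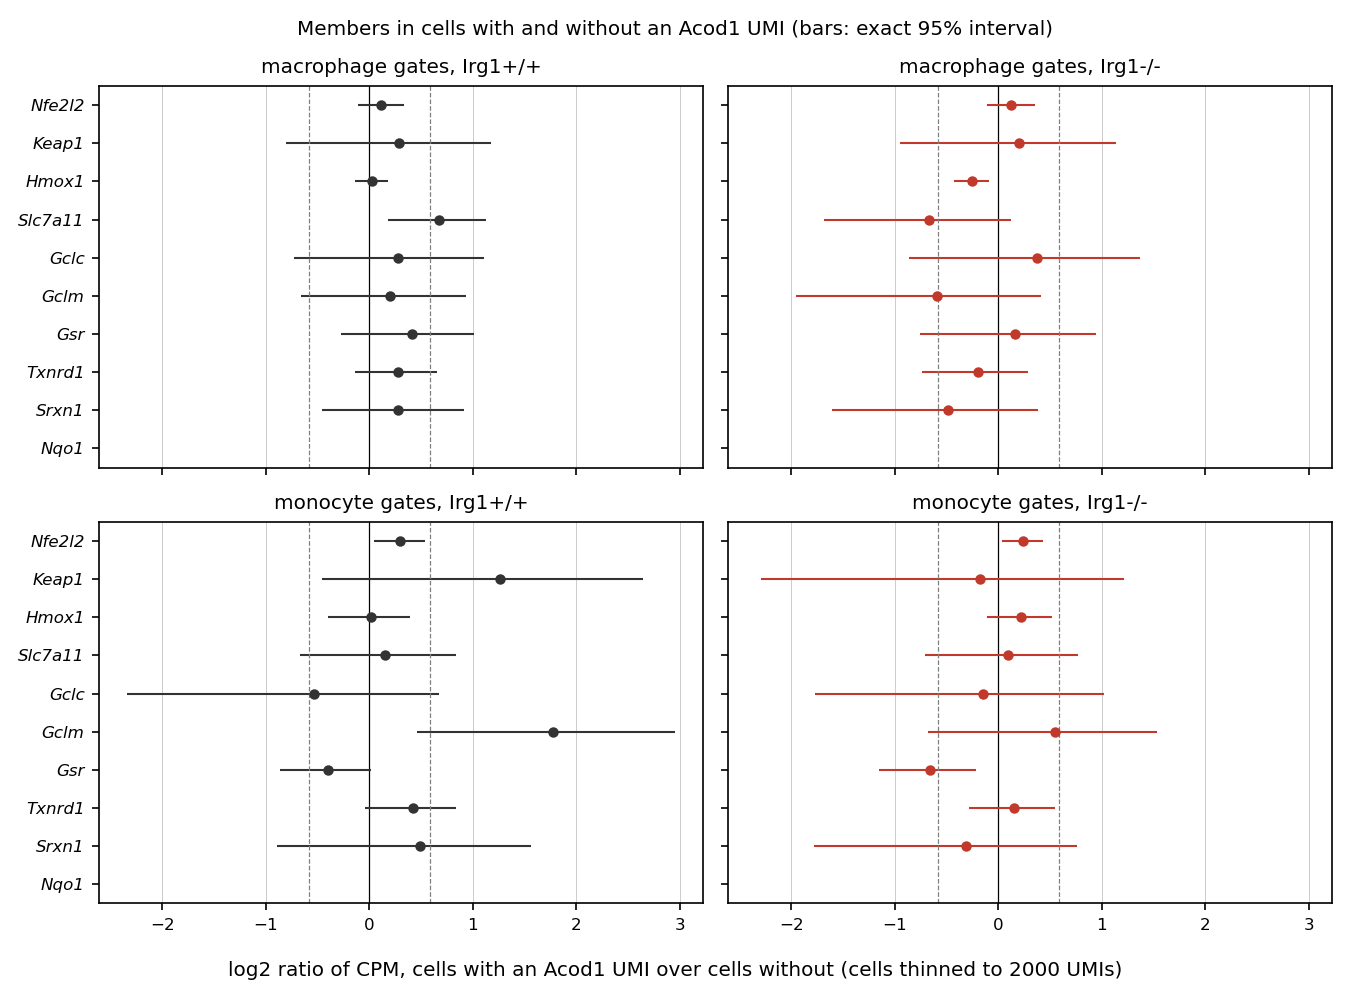
Log2 ratio of CPM between cells with and without an Acod1 UMI (x axis) for the members (y axis), in macrophage and monocyte gates of each library, with exact 95% intervals and dashed lines at 1.5-fold. Slc7a11 lies right of 0 in Irg1+/+ macrophages (fold 1.59) and left of 0 in Irg1-/- macrophages (0.63), both within 1.5-fold without thinning, and Hmox1 lies close to 0 in Irg1+/+ macrophages (1.02).

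In neutrophils few cells remained after thinning. Acod1-positive cells numbered 12 of 18 in Irg1+/+ and 57 of 68 in Irg1-/-. In Irg1-/- 4 of 5 members with enough UMIs passed 1.5-fold, where 47.2% of all genes did. Nfe2l2 (1.62, 1.06 to 2.69), Slc7a11 (1.64, 1.00 to 3.04) and Txnrd1 (1.61, 0.64 to 6.89) were higher in positive cells and Hmox1 (0.48, 0.30 to 0.82) was lower, against only 11 negative cells. In Irg1+/+ 2 of 3 passed, Nfe2l2 and Slc7a11, against 54.6% and with 6 negative cells.

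Other genes around the pathway were taken from lists by function. Of the heme and iron genes 8 of 9 were higher and 1 lower in macrophages than in lymphocytes in both libraries, where 19.3% and 20.4% of all genes were higher. Their median log2 ratio was 1.98 and 1.88, where the median of all genes was -0.28 and -0.24. In Irg1+/+ the ferritin heavy chain Fth1 had 3375 CPM in lymphocytes and 11052 CPM in macrophages, the light chain Ftl1 1562 and 6165 CPM, and the iron exporter Slc40a1 2.01 and 20.9 CPM. The transferrin receptor Tfrc, which imports iron, was the one lower gene with 320 and 133 CPM. Ftl1 has near-identical pseudogenes, so its count is uncertain. Among 12 Nrf2 regulators 3 were higher and 1 lower in both libraries, a share of higher genes near the 19.3% and 20.4% of all genes. The share of all genes that were lower is not given, so the lower calls of both lists are counts only. Bach1, the repressor that competes with Nrf2, had 78.8 CPM in lymphocytes and 240 CPM in macrophages in Irg1+/+, and Bach2, its B and T cell relative, 30.9 and 7.40 CPM.

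Of the glutathione genes 4 of 15 were higher and 3 lower in Irg1+/+ macrophages, and 4 of 13 and 2 in Irg1-/-. The counts of higher genes here and next stand beside the same 19.3% and 20.4% of all genes that were higher. For the counts of lower genes no share over all genes is given, so nothing is read from them. The peroxidase Gpx1 had 391 and 967 CPM and Slc3a2, the partner chain of Slc7a11, 522 and 762 CPM in Irg1+/+ lymphocytes and macrophages. Thioredoxin and peroxide genes had 4 and 5 of 14 higher and 1 lower, with Prdx1 at 596 and 1266 CPM and Txn1 at 1016 and 951 CPM. Of the genes in the NADPH list 3 of 6 and 3 of 5 were higher, led by Idh1 with 29.7 and 125 CPM. The remaining Nrf2 targets had 6 and 5 of 9 higher and 1 lower, including Cd36 with 122 and 798 CPM.

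Between the libraries, most of these genes stayed within 1.5-fold in macrophages, where 5.44% of all genes were higher and 6.14% lower. Of 12 regulators 1 was higher and 0 lower, of 14 thioredoxin and peroxide genes 1 and 0, and of 9 heme and iron genes 1 and 1. No gene of the 13 for glutathione and the 6 for NADPH passed in either direction. Gpx1 had 967 and 1032 CPM and Txn1 951 and 1016 CPM. Prdx1, a peroxiredoxin, had 1266 and 1030 CPM and Prdx6 286 and 214 CPM. The genes past the limit were Sod3, extracellular superoxide dismutase, with 3.01 and 12.97 CPM, the hemoglobin scavenger receptor Cd163, which is also a marker of the resident-like state, with 6.71 and 14.2 CPM, Bach2 with 7.40 and 11.1 CPM and Tfrc with 133 and 74.5 CPM.

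Among the 9 other Nrf2 targets 2 were higher and 3 lower in Irg1-/- macrophages, beside the same 5.44% and 6.14%. The fatty acid transporter Cd36 had 798 and 502 CPM over the macrophage class, but folds within 1.5 in each gate, with 507 and 374 CPM (0.74) in C1q and 1185 and 881 CPM (0.74) in hypoxic macrophages. Akr1b8 had 13.5 and 7.26 CPM and Osgin1, an oxidative stress response gene, 5.94 and 9.78 CPM. In monocytes Cd36 had 239 and 156 CPM. Slc7a11 is also a target of Atf4, the factor of the amino acid response, so that list was read beside it. Of 8 genes 0 were higher and 2 lower in macrophages, with Atf4 itself at 384 and 425 CPM, Atf3 at 501 and 631 CPM and Trib3 at 6.94 and 3.41 CPM. In monocytes 0 of 6 passed either way, beside 5.00% higher and 6.45% lower over all genes, with Atf4 at 413 and 419 CPM. Nfkbiz, which encodes the protein IκBζ of the electrophile response, had 384 and 335 CPM in macrophages and 313 and 245 CPM in monocytes. The lower macrophage value lay in hypoxic macrophages (490 and 376 CPM) and not in C1q macrophages (305 and 321 CPM), and the order was opposite in neutrophils (1600 and 2079 CPM), DCs (230 and 336 CPM) and lymphocytes (228 and 280 CPM).

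Hypoxia and glycolysis genes had lower summed levels in Irg1-/- in the macrophage and monocyte classes, but not within hypoxic macrophages, which had 4075 and 4182 CPM and were fewer in Irg1-/- (321 of 1049 against 710 of 1406 macrophages). In C1q macrophages the sums were 1622 and 1409 CPM, in eosinophils 1837 and 2227 CPM. All 7 listed in the files were detected, with summed levels of 2674 and 2112 CPM in macrophages and 1594 and 1230 CPM in monocytes, and Ldha was the most abundant with 1173 and 976 CPM in macrophages. Their median log2 ratio was -0.41 in macrophages and -0.47 in monocytes, and 1 of 7 was past 1.5-fold lower in each, beside 6.14% and 6.45% and medians of -0.03 and -0.04 over all genes. The gene was Egln3 with 198 and 130 CPM and 78.6 and 39.96 CPM. Vegfa is both in this list and among the markers of the hypoxic gate. The part of these genes in the Slc7a11 ratios was not tested.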

How the data were processed

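Single-cell libraries of CD45+ tumor cells from Irg1+/+ and Irg1-/- mice were read as deposited. The authors made raw UMI counts per gene and cell (BD Rhapsody) with CASAVA 1.8, fastp, UMI-tools and STAR on GRCm38, and used Seurat. Both matrices were summed as counts without further normalization. A cell was kept with more than 200 genes and a mitochondrial share of UMIs below 10%. Doublets were not removed since the methods name no such step. Gates used minimums of 5 to 60 marker UMIs per 10000 and at least 3 marker UMIs. CPM is the summed UMIs of a class over its total. CPM intervals are exact Poisson, shares Clopper-Pearson, and ratios exact conditional binomial with a pseudocount of 0.5 UMIs on the printed fold, all at 95%. UMIs of 1 cell are not independent, so all intervals are too narrow as errors of a genotype. A member counts as higher or lower past 1.5-fold with at least 20 UMIs over both sides. CPM is not scaled by gene length, so levels are compared within a gene. Where a gene is called the most abundant of a list, this means only that it had the most UMIs. Positions are from the GENCODE annotation of GRCm38. States were set by minimums of 8 (cycling), 4 (resident), 12 (Mrc1), 150 (MHC class II) and 40 (interferon) marker UMIs per 10000. The alternative clusters used Seurat 5.3.0 with 2000 variable genes, 10 components and resolution 0.8, which gave 20 clusters of which 1 stayed unnamed. TMM came from edgeR 4.0.16, with R 4.3.3, Python 3.11.15, numpy 2.4.6, scipy 1.17.1 and pandas 2.3.3. The ratio code was tested on simulated data. From each list the text names the genes with the most UMIs and those with the smallest and largest ratio, and other named genes were chosen after their values were seen. The 10 members, the gates and all lists were chosen with earlier results of these data known, so they are not independent evidence.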

Additional observations from a re-analysis of the deposited data

Results flagged for a closer look

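The Slc7a11 ratio had opposite signs in some cell types. Its log2 ratio of Irg1-/- over Irg1+/+ was 0.85 in cDC1, but -0.79 in T cells and -0.92 in classical monocytes, with exact 95% intervals that did not reach 0. The difference between these ratios was not tested, since each genotype has 1 library. The levels were low in cDC1 (17.8 and 32.2 CPM) and in T cells (16.5 and 9.47 CPM). Over all kept cells Slc7a11 had 60.8 and 55.7 CPM. For scale, C1qb, which T cells should lack, had 406 and 466 CPM in T cells and 1090 and 1113 CPM over all kept cells. How many of the Slc7a11 UMIs came from other cells was not tested, so no direction within cDC1 or T cells is drawn from these ratios.

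Gclc stood out among the cells left out for their mitochondrial share. The 124 such cells of Irg1+/+ had 82.0 CPM (44.8 to 137.5, from 14 UMIs), above the 36.7 CPM of the kept cells. The 102 such cells of Irg1-/- had 63.6 CPM (27.5 to 125.3, from 8 UMIs), an interval that included the 32.996 CPM of the kept cells.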

How the results depend on the processing

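No paired analysis was possible because each genotype has 1 library, and no replicate could be left out. Of 192 counts and medians recomputed under the alternatives 156 stayed near their value and 36 moved, and of 614 ratios of single members 558 stayed, 52 moved and 4 reversed. The causes were not tested. The number of members higher in macrophages than in lymphocytes was 4 to 6 in Irg1+/+ and 4 or 5 in Irg1-/- over all alternatives. Slc7a11 kept a log2 ratio of -0.64 to -0.85 in macrophages and of -0.41 to -0.89 in monocytes. The 4 reversals, counted among ratios whose interval did not reach 0, were Nfe2l2 (-0.031) and Txnrd1 (0.0067) in macrophages without cells holding a melanocyte UMI, and Hmox1 in DCs with doubled gate minimums (0.061) and with the mean of each cell's CPM (0.087). Leaving out cells with a melanocyte UMI kept unequal parts of the libraries, 531 of 1406 Irg1+/+ and 655 of 1049 Irg1-/- macrophages. In granulocytes, ratios whose interval reached 0 changed sign without cells meeting 2 lineages, with Hmox1 at 0.40, Gsr at -0.14 and Slc7a11 at 0.22 in neutrophils and Hmox1 at 0.32 and Slc7a11 at -1.69 in eosinophils. TMM scaling moved the log2 ratios between the libraries by 0.24 in neutrophils, 0.12 in eosinophils and at most 0.05 elsewhere.

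The counts past 1.5-fold were small and moved under most alternatives in granulocytes. In neutrophils the count of 1 became 3 with TMM scaling and with no minimum of UMIs, 2 in thinned cells, without cells holding a melanocyte UMI and with the mean of each cell's CPM, and 0 with a minimum of 100 UMIs, a pseudocount of 5 UMIs or without cells meeting 2 lineages. In eosinophils the count of 1 became 3 without cells meeting 2 lineages, 0 with the minimum of 100 UMIs, and 2 with clusters, TMM scaling, doubled gate minimums, no minimum of UMIs or without cells holding a melanocyte UMI. In monocytes it became 2 with doubled gate minimums, no minimum of UMIs or without cells holding a melanocyte UMI. In DCs the count of 0 became 2 in thinned cells. In lymphocytes the count of 0 became 1 without cells meeting 2 lineages, in thinned cells, with no minimum of UMIs, with the mean of each cell's CPM and without the highest cell. The last setting, and leaving out barcodes found in both libraries, were added after seeing the data.

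Thinning moved the median log2 ratio of the members to 0.66 in eosinophils, -0.25 in macrophages and -0.039 in monocytes. In lymphocytes it was 0.12 without cells holding a melanocyte UMI and 0.10 with the mean of each cell's CPM. Between Acod1-positive and Acod1-negative cells, counts without thinning were 0 in macrophages of each library and 1 in Irg1+/+ monocytes. With a pseudocount of 5 UMIs they were 2 and 1 in Irg1+/+ and Irg1-/- macrophages, 2 in Irg1-/- monocytes and 1 in Irg1-/- neutrophils.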

Other observations

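The genes whose levels were most like those of each member were found among 9250 genes with at least 500 UMIs, by Pearson's r of log2(CPM + 10) over the 28 points of 14 gates and 2 libraries. The points share libraries and vary in depth, so the values are descriptions. Nfe2l2 was most like Tnfaip2 (0.94), Tlr13 (0.93) and Csf2ra (0.92), genes of myeloid cells. Hmox1 was most like Plin2 (0.91), which coats lipid droplets, Por (0.90), the reductase that passes electrons to heme oxygenase, and Ftl1 (0.88). Slc7a11 was most like Pygl (0.92), a glycogen phosphorylase, Ccrl2 (0.92) and Nfkbia (0.90). Gsr was most like Pilrb1 (0.93) and Msrb1 (0.88), a methionine sulfoxide reductase. No gene reached such values for Keap1 (Csnk2a2, 0.80), Gclm (Stam2, 0.74), Gclc (Bcl9l, 0.75) or Txnrd1 (Cdkn1a, 0.82). Srxn1 was most like Ftl1-ps1 (0.85), a pseudogene whose reads cannot be told apart from those of Ftl1. Among the members themselves, Nfe2l2 had r = 0.67 with Slc7a11, 0.65 with Txnrd1, 0.51 with Hmox1 and -0.40 with Keap1.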
